A study of Mus musculus with 4 samples.

Results

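The cells described here are candidate non-classical monocytes among macrophages sorted from mouse perigonadal white fat, and 875 of the 21388 kept cells were members. A kept cell had at least 500 UMIs (unique molecular identifiers, each standing for 1 captured transcript), at least 300 detected genes and at most 10% of its UMIs from mitochondrial genes. A member had at least 1 UMI of at least 2 of the 4 genes Ace, Adgre4, Treml4 and Itgal, at most 5 UMIs of C1qa, C1qb and C1qc together per 10000 UMIs, and no UMI of Ly6c2, Flt3, Ncr1 or Cd3e. These genes therefore chose the members, and their levels are given as a description of the gate only. Mice with a conditional knockout of BLIMP1 (CKO) and control mice (WT) were each fed a normal diet or a diet high in fat (HFD), and 1 library stands for each of CKO HFD, WT HFD, CKO normal diet and WT normal diet. Before capture all 4 were sorted for live CD45+ CD11b+ CD64+ cells without lineage markers. How many mice a library pools, their age, and which Cre line and exons the knockout used were not known here. With 1 library a group, library and group cannot be told apart, no test between libraries could be made, and genes were called by size alone.

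Non-classical monocytes are the Ly6C-low monocytes of the mouse. In blood they arise largely from Ly6C-high classical monocytes, need the nuclear receptor NR4A1 to develop, and crawl along the inner wall of vessels, where they are known for surveying the endothelium. The integrin LFA-1 holds them to the vessel wall, the fractalkine receptor CX3CR1 serves their survival, and their surface carries CD43. Of the gate genes, Ace encodes angiotensin-converting enzyme, Adgre4 an adhesion G protein-coupled receptor of the F4/80 family, Treml4 a receptor of the TREM family, and Itgal the alpha chain of LFA-1. On GRCm38, Ace lies at chr11:105967945-105989964 on the plus strand, Adgre4 at chr17:55749984-55853662 on the plus strand, Treml4 at chr17:48264295-48275360 on the plus strand, and Itgal at chr7:127296260-127335138 on the plus strand. BLIMP1, encoded by Prdm1, is a transcriptional repressor best known for driving the last step of plasma cell formation.

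The libraries differed in depth, and that difference runs along 1 group. The 41 members in CKO HFD, 69 in WT HFD, 357 in CKO normal diet and 408 in WT normal diet held 131446, 804754, 1165770 and 1297279 UMIs in that order. The median member had 10182 UMIs in WT HFD, against 2439 to 2523 in the other 3 libraries, and the other kept cells showed the same gap, with 14574 UMIs against 3929 to 4455. A single UMI was worth 7.61 CPM (UMIs of a gene per 1000000 UMIs) over the members of CKO HFD and 0.771 to 1.24 CPM in the other 3 libraries, so a level in CKO HFD rests on few molecules. Median mitochondrial shares of the members ran from 1.17% to 2.43%, with the highest in WT HFD. The libraries shared 35 cell barcodes in all, and none of them belonged to a member. All intervals below are 95% intervals that cover counting error only.

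The gate cut through a wider set of cells that carried its markers. At least 2 of the 4 markers were found in 1515 kept cells, and in the HFD libraries most of these were lost to the C1q limit. C1q exceeded it in 104 of 158 such cells in CKO HFD (65.8%) and 135 of 219 in WT HFD (61.6%), against 141 of 543 in CKO normal diet (26.0%) and 138 of 595 in WT normal diet (23.2%). C1q, the first component of the classical complement pathway, is made in quantity by tissue macrophages. The Ly6c2 condition then removed 7 to 24 cells a library, Flt3 2 to 28, Cd3e 1 in all and Ncr1 none. Just outside the rule stood 800 cells that had only 1 marker and met every other condition, and 43 cells with at least 2 markers and a C1q level between 5 and 10. Among the members, 38 of 41 in CKO HFD (92.7%) and 37 of 69 in WT HFD (53.6%) had no C1q UMI at all. In CKO normal diet it was 336 of 357 (94.1%) and in WT normal diet 374 of 408 (91.7%). The part of depth in this was not tested.

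Members of the HFD libraries met the rule with less to spare. At least 3 markers were present in 22 of 41 members in CKO HFD (53.7%) and 21 of 69 in WT HFD (30.4%), against 280 of 357 in CKO normal diet (78.4%) and 319 of 408 in WT normal diet (78.2%). Depth moved with this number. In WT HFD the members with 2 markers had a median of 12064 UMIs and those with 3 or 4 had 6983, whereas in the normal diet libraries both kinds lay between 2397 and 2623 UMIs. The part of depth in the marker number was not tested beyond the thinning described below.

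**Figure D1:**
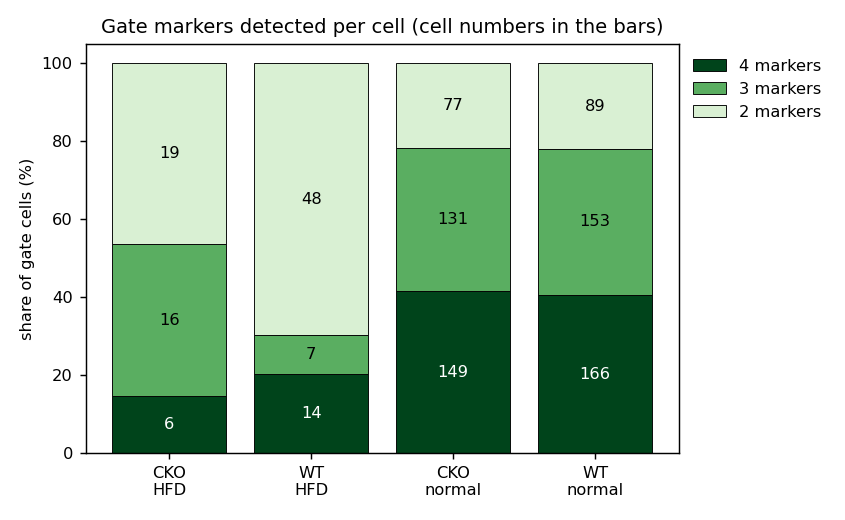
Percentage of members (y axis) that carried 4, 3 or 2 of the gate markers Ace, Adgre4, Treml4 and Itgal in each library (x axis), with cell numbers in the bars. Members with 2 markers are 48 of 69 in WT HFD and 89 of 408 in WT normal diet.

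The 4 gate genes were lower in the members of both HFD libraries, with no test since they chose the cells. Ace stood at 251 CPM in CKO HFD and 127 in WT HFD, against 489 in CKO normal diet and 514 in WT normal diet. Adgre4 stood at 464, 257, 872 and 957 CPM in the same order of libraries. Itgal had 548 CPM in CKO HFD and 148 in WT HFD, against 1103 in CKO normal diet and 1123 in WT normal diet. Treml4 had 221, 84.5, 370 and 372 CPM over the same 4 libraries. The lowest value of each of the 4 genes was in WT HFD. In other kept cells Ace ran from 3.9 to 10.2 CPM and Adgre4 from 26.4 to 47.0 CPM.

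The share of kept cells in the gate was lower under HFD than under the normal diet in both genotypes. Members were 0.470% of kept cells in CKO HFD (Clopper-Pearson interval 0.337 to 0.637), 1.48% in WT HFD (1.16 to 1.87), 8.30% in CKO normal diet (7.49 to 9.16) and 11.0% in WT normal diet (10.0 to 12.1). The share was thus 17.7-fold lower in CKO HFD than in CKO normal diet (interval 12.8 to 25.1) and 7.42-fold lower in WT HFD than in WT normal diet (5.74 to 9.72). These are shares of a sorted population: the CD64 gate and the capture of cells set them, and fewer monocytes cannot be told apart from more macrophages in the same sort.

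Thinning each cell to 2000 UMIs put the libraries at 1 depth and kept the direction of both diet differences. The thinned gate held 15 of 7655 cells in CKO HFD (0.196%, 0.110 to 0.323) and 20 of 4583 in WT HFD (0.436%, 0.267 to 0.673), against 236 of 3482 in CKO normal diet (6.78%, 5.97 to 7.66) and 269 of 3030 in WT normal diet (8.88%, 7.89 to 9.95). Of the members deep enough, 13 of 24 in CKO HFD and 17 of 69 in WT HFD stayed in the gate, against 230 of 265 in CKO normal diet and 253 of 289 in WT normal diet. Cells under 2000 UMIs were left out, among them 17 members of CKO HFD, none of WT HFD, 92 of CKO normal diet and 119 of WT normal diet. At this depth the share was 34.6-fold lower in CKO HFD than in CKO normal diet (20.5 to 62.8) and 20.3-fold lower in WT HFD than in WT normal diet (12.9 to 33.8). Both folds exceed the unthinned ones.

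Between genotypes the shares lay closer. Under the normal diet the CKO share was 0.754 of the WT share (interval 0.652 to 0.871), and 0.699 to 0.771 of it over the alternatives tried. Under HFD the ratio depended on how the cells were counted. It was 0.316 over all members (0.210 to 0.472), 0.449 after thinning to 2000 UMIs (0.214 to 0.923), 0.558 for members with at least 3 markers (0.293 to 1.07) and 0.870 after thinning to 1000 UMIs (0.438 to 1.78). The last of these intervals includes equal shares, and so does the interval for at least 3 markers, so a lower share in CKO HFD than in WT HFD was not detectable under those counts.

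**Figure D2:**
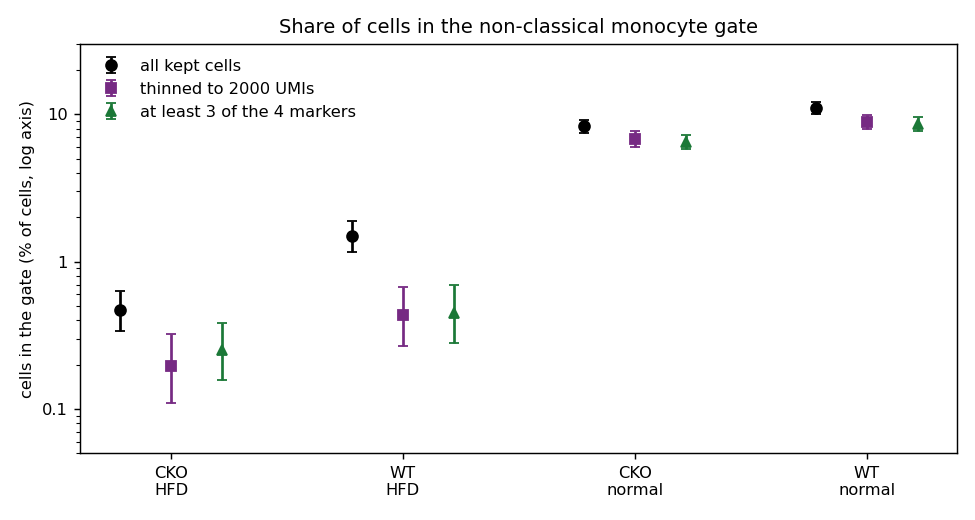
Share of kept cells in the gate, in percent on a log axis, for the 4 libraries under 3 ways of counting: the full rule, at least 3 markers, and cells thinned to 2000 UMIs. Points are shares and bars 95% Clopper-Pearson intervals for counting error, and both HFD libraries lie below both normal diet libraries under every count.

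Genes known for non-classical monocytes that the rule did not use were high in members with 3 or 4 markers, and in WT HFD most members, those with 2 markers, did not carry them at such levels. The summed level of 22 such genes was 7988 CPM in members of CKO HFD, 4695 in WT HFD, 10270 in CKO normal diet and 10330 in WT normal diet, against 2378 to 3111 CPM in other kept cells. Among members with 3 or 4 markers the sum was similar across libraries, at 12708 CPM in CKO HFD, 10118 in WT HFD, 11843 in CKO normal diet and 12333 in WT normal diet. Members with 2 markers lay between, at 4707, 3469, 5899 and 5731 CPM in the same order. The label was borne out only in part by the 48 members of WT HFD with 2 markers. Spn was at 12.2 CPM there and 12.4 in other kept cells, Cd300e at 4.57 and 1.71, and Pglyrp1 at 0 and 0.86. Other genes of the list stood above other kept cells: Gngt2 at 302 and 85.8 CPM, Pou2f2 at 128 and 70.3, and Fcgr4 at 60.9 and 34.6. Cx3cr1 was at 97.5 and 50.9 CPM and Nr4a1 at 452 and 266. Ccr2, a gene of classical monocytes, was also higher, at 1136 and 795 CPM. The 7 members of WT HFD with 3 markers also had only 36.9 CPM of Spn and 18.5 of Cd300e, and none of Pglyrp1. For Spn and Cd300e the level in that library thus came mostly from its 14 members with 4 markers, at 414 and 435 CPM. The 7 members did have 979 CPM of Gngt2, 351 of Pou2f2 and 203 of Fcgr4. Their summed list was 5910 CPM, against 12536 with 4 markers.

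Nr4a1 encodes the nuclear receptor that these monocytes need in mice and lies at chr15:101254269-101274795. Its level in members with 3 or 4 markers was 1243 CPM in CKO HFD, 964 in WT HFD, 1797 in CKO normal diet and 1569 in WT normal diet. In members with 2 markers it was 374, 452, 1158 and 994 CPM, and in other kept cells 386, 266, 797 and 949 CPM. Nr4a1 is also an immediate early gene, and its level outside the gate was high, so it set the members apart less than the next genes.

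Gngt2, a G protein gamma subunit gene at chr11:95837216-95845734, separated the classes more sharply. Members with 3 or 4 markers had 2764 CPM in CKO HFD, 1449 in WT HFD, 806 in CKO normal diet and 980 in WT normal diet, and other kept cells had 117, 85.8, 29.9 and 51.7 CPM. After thinning, Gngt2 was detected in 79.2%, 59.4%, 74.3% and 76.8% of the members, against 10.4%, 11.2%, 2.28% and 4.20% of cells with under 2 markers over the C1q limit. Unthinned, Gngt2 was found in every member of CKO HFD and in 88.4%, 79.3% and 79.7% of members of the other 3 libraries, and in 18.4%, 35.5%, 4.91% and 8.33% of cells over the limit, whose median depths were 3805, 14644, 3568 and 3816 UMIs. Spn, which encodes CD43, had 427, 276, 371 and 364 CPM in members with 3 or 4 markers and 18.9, 12.4, 22.0 and 25.0 CPM in other kept cells. Cd300e, an activating receptor gene of monocytes, had 557, 283, 244 and 249 CPM in members with 3 or 4 markers, against 1.08 to 4.20 CPM in other kept cells. Pou2f2, the gene of the transcription factor OCT2, had 612, 870, 979 and 1054 CPM in the same members, against 61.7 to 87.3 CPM. For each of these 4 genes the lowest library of the 3-to-4-marker members lay above the highest library of the other kept cells.

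Some genes of neighbouring cell types were low in part of the members, and others were not. The summed classical monocyte list was 6733 CPM in all members of CKO HFD, 4719 in WT HFD, 4872 in CKO normal diet and 4924 in WT normal diet, against 6234, 5050, 6829 and 6671 CPM in other kept cells, so it was not lower in CKO HFD. Of 7 tested genes of that list, Plac8 was at least 2-fold higher in the members in all 4 libraries and F13a1 lower. Of all tested genes 3.12% were higher and 1.77% lower in all 4. By library, 2 of the 7 were higher and 1 lower in CKO HFD, 1 and 1 in WT HFD, and 2 and 3 in each normal diet library. Over all members Ccr2 had 411, 1030, 419 and 473 CPM. Ccr2, the chemokine receptor of classical monocytes, had 260, 559, 272 and 253 CPM in members with 3 or 4 markers, against 698, 795, 831 and 924 CPM in other kept cells. Mrc1, the mannose receptor gene of resident macrophages, had 55.7, 148, 91.0 and 96.3 CPM in the same members and 862, 1102, 1434 and 1333 CPM in other kept cells. Fn1, a matrix gene of classical monocytes and macrophages, had 315, 53.9, 542 and 604 CPM, against 1080, 887, 2379 and 2443 CPM. The 2-marker members were nearer to other cells here too, and above them for Ccr2 in WT HFD and WT normal diet, with 516, 1136, 830 and 976 CPM of Ccr2 and 168, 477, 418 and 262 CPM of Mrc1.

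**Figure D3:**
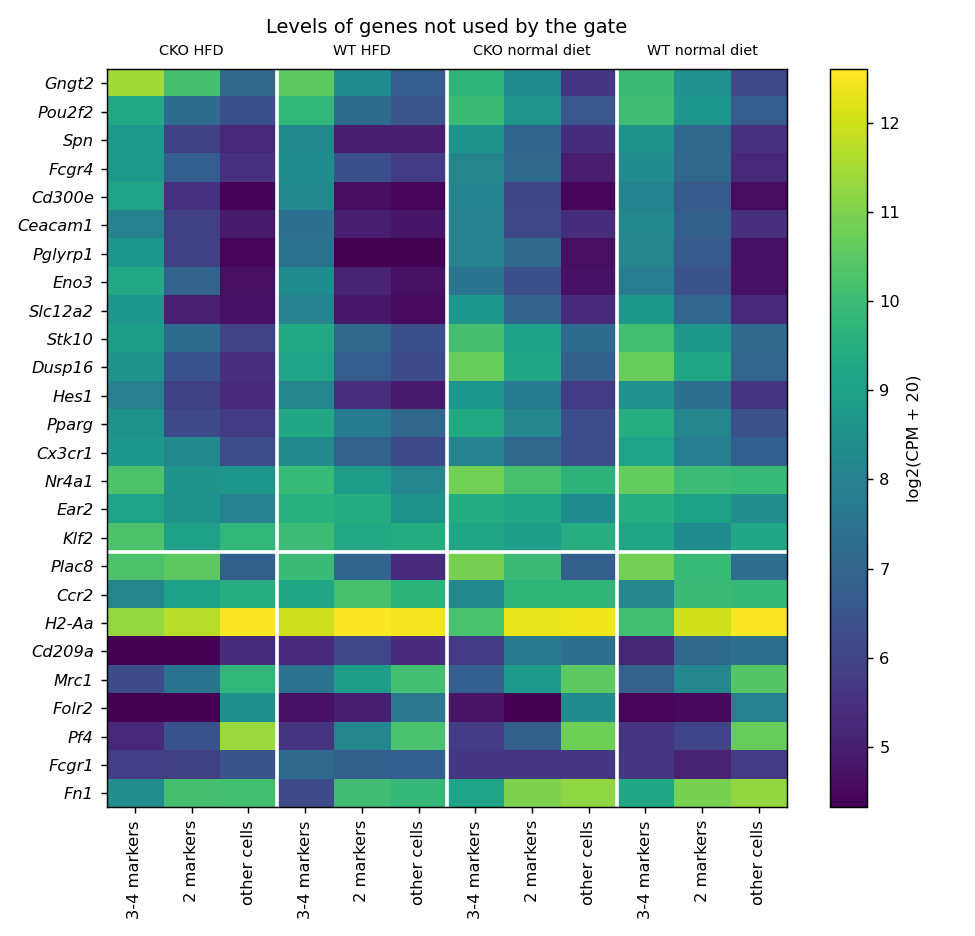
Levels, as log2(CPM + 20), of 26 genes that the rule did not use, by cell class (members with 3 or 4 markers, members with 2 markers, other kept cells) and library. The upper 17 genes are known for non-classical monocytes and the lower 9 for other types; within each library Gngt2, Spn and Cd300e are brightest in members with 3 or 4 markers, and members with 2 markers lie lower, for Spn in WT HFD at the level of other kept cells.

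The marker number was followed by the unused genes even at equal depth. After thinning to 2000 UMIs the summed non-classical list in CKO normal diet was 13286 CPM over 77 members with 4 markers, 12961 over 115 with 3 and 10898 over 44 with 2, against 2924 CPM outside the gate. In WT normal diet it was 14151 CPM over 86 members with 4 markers, 13023 over 107 with 3 and 9237 over 76 with 2, against 3192 CPM outside. WT HFD had 12714 CPM over 7 members with 4 markers and 7188 CPM over 8 with 2, and CKO HFD had 7955 CPM over 11 members with 2 and 14375 CPM over 4 with 3. Every one of these sums stood above the level outside its gate.

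Few signs of lymphoid or stromal cells were found among the members, and the summed neutrophil list was low yet above that of other kept cells. Nkg7, Gzma, Gzmb, Cd3d, Cd3g, Ms4a1, Retnlg, Gp9 and Hbb-bs had no UMI in members of any library. The summed lists of other cells stood at 15.2 to 47.0 CPM for NK cells, 0 to 50.9 for T and innate lymphoid cells, 68.5 to 96.9 for B cells, 43.5 to 168 for neutrophils, 0 to 5.4 for platelets and red cells, and 101 to 177 for fibroblasts. The neutrophil sum stood above other kept cells in every library, at 53.3, 43.5, 168 and 129 CPM against 28.4, 24.2, 74.1 and 103 CPM. The other sums stood below other kept cells in every library. Ighm, Csf3r and Gsn made up most of the B cell, neutrophil and fibroblast sums. Fcgr1, the gene of the CD64 protein used in the sort, was low in members as in other cells: it had 38.0 CPM in CKO HFD, 99.4 in WT HFD, 29.2 in CKO normal diet and 25.4 in WT normal diet, against 66.4, 91.9, 29.8 and 33.2 CPM in other kept cells. Scrublet, a doublet caller, marked no cell in any library at its automatic threshold and so did not work here. When the cells with the highest doublet scores were left out instead, 0 members of CKO HFD, 1 of WT HFD, 11 of CKO normal diet and 13 of WT normal diet went with them. That was 0%, 1.45%, 3.08% and 3.19% of the members, beside 6.99%, 3.72%, 3.44% and 2.97% of all kept cells.

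The classes next to the members in the rule differed in how much of the unused profile they held. Cells with at least 2 markers and low C1q that failed the rule by a UMI of Ly6c2 alone, 11 in CKO HFD, 7 in WT HFD, 16 in CKO normal diet and 22 in WT normal diet, had 4712, 4395, 6863 and 4800 CPM of the summed non-classical list and 1681, 670, 700 and 400 CPM of Gngt2. Their sum came near that of all members in WT HFD, while Cd300e stood at 0, 0, 0 and 16.0 CPM. Cells with at least 2 markers that failed by C1q alone had 3520, 2901, 4151 and 4468 CPM of the list. Cells with a UMI of Ly6c2, a gene of classical monocytes, and under 2 markers had 2212 CPM of the summed non-classical list in CKO HFD, 3132 in WT HFD, 2508 in CKO normal diet and 2333 in WT normal diet. Their summed classical monocyte list was 11326, 8076, 12408 and 9324 CPM, against 6733, 4719, 4872 and 4924 CPM in the members. Cells with a UMI of Flt3, a receptor gene of dendritic cells, had 1116, 2159, 3223 and 2716 CPM of the type 2 conventional dendritic cell list. The members had 198, 1075, 609 and 633 CPM of it, and other kept cells 1363, 1497, 1783 and 1737 CPM. Of the type 1 list the cells with Flt3 had 2561, 2907, 1151 and 1247 CPM, and the members 396, 558, 606 and 491 CPM. Among the members, those of WT HFD stood highest in the type 2 list. Members with only Adgre4 and Itgal had 349, 1895, 1760 and 1793 CPM of it in the same order of libraries. Cells with 1 marker had 2322 to 3294 CPM of the non-classical list, close to the 2180 to 2945 CPM of cells with none.

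Across the transcriptome a small set of genes differed in the same direction between members and other kept cells in every library. Of 1697 genes with enough counts, at a mean of at least 100 CPM, 53 (3.12%) were at least 2-fold higher in the members in every library and 30 (1.77%) at least 2-fold lower, on the scale of CPM + 20. Single libraries differed in more genes, with 135 higher and 129 lower in CKO HFD and 69 and 37 in WT HFD. In CKO normal diet 216 were higher and 146 lower, and in WT normal diet 193 and 136. WT HFD, with the fewest, limits the count over all 4 libraries. The cells were chosen from these same counts, so this is a description of the gate. Of 16 tested genes of the unused non-classical list, 10 were higher in all 4 libraries: Cx3cr1, Spn, Fcgr4, Pou2f2, Gngt2, Hes1, Dusp16, Stk10, Slc12a2 and Pparg. None was lower.

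The genes that stood highest were led by Plac8 and Gngt2. Plac8, a small cysteine-rich protein gene also known from classical monocytes, had 1354 CPM in members of CKO HFD, 267 in WT HFD, 1656 in CKO normal diet and 1585 in WT normal diet, against 93.0, 20.8, 94.2 and 135 CPM in other kept cells. Gsr, the glutathione reductase gene, had 243, 122, 968 and 932 CPM, against 23.3, 19.4, 46.4 and 57.3 CPM. Apoc2, a cofactor of lipoprotein lipase, had 540, 78.3, 382 and 399 CPM, against 20.5, 15.2, 12.4 and 13.9 CPM. All 3 genes were lowest in the members of WT HFD. Cytip, whose product binds cytohesins and regulates leukocyte adhesion, had 418, 606, 1228 and 1298 CPM, against 98.0, 168, 291 and 384 CPM. Pot1b, Rap1gap2, Fgr, Napsa, Slc12a2, Cyfip2, Hes1, Stk10 and Krt80 completed the set, with ratios of 2.79 to 11.1 on the CPM + 20 scale. Fgr encodes a Src-family kinase, Rap1gap2 and Cyfip2 act on small GTPases and actin, and Hes1 is a repressor downstream of Notch.

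Of the 10 genes that stood lowest, Folr2, Pf4, Cd163 and Selenop were on the macrophage list and F13a1 on the classical monocyte list. Folr2, the folate receptor beta gene, had 0, 11.2, 5.15 and 2.31 CPM in the members, against 340, 175, 298 and 226 CPM in other kept cells. Pf4, a chemokine gene that resident macrophages express, had 45.6, 210, 49.8 and 32.4 CPM, against 2626, 1176, 1748 and 1616 CPM. Cd163, the haemoglobin scavenger receptor gene, had 0, 14.9, 11.2 and 21.6 CPM, against 251, 104, 298 and 221 CPM. A value of 0 in CKO HFD allows up to 22.8 CPM, the worth of 3 UMIs. Retnla, a gene of alternatively activated macrophages, was lower yet far from absent, at 966, 1110, 1835 and 1841 CPM, 11.3-fold, 6.45-fold, 6.44-fold and 4.94-fold under the other kept cells of its library. Selenop, Ccl24, Psd3, F13a1, Timp2 and Emp1 were 3.5-fold to 18.7-fold lower. With Mrc1 and Maf, 6 of 12 tested macrophage genes were lower in all 4 libraries, the others being Cd163, Folr2, Pf4 and Selenop. Of all tested genes 1.77% were lower in all 4 libraries. The summed macrophage list was 5767 CPM in members of CKO HFD, 6741 in WT HFD, 2790 in CKO normal diet and 2638 in WT normal diet, against 13096, 13174, 10301 and 9478 CPM in other kept cells.

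Among genes of adhesion, survival and transcription few passed in all 4 libraries, beside 3.12% higher and 1.77% lower of all tested genes. Itga4, the alpha-4 integrin chain of VLA-4, had 388, 302, 1172 and 1137 CPM in the members, against 82.0, 112, 252 and 277 CPM in other kept cells, and was 1 of 3 higher genes among 13 tested adhesion genes, with Cx3cr1 and Spn. Bcl2, the anti-apoptotic gene, had 91.3, 98.2, 567 and 495 CPM, against 13.9, 27.3, 53.2 and 47.8 CPM, and was the 1 higher gene of 9 tested survival genes. Tcf7l2, a transcription factor of the Wnt pathway, had 98.9, 84.5, 563 and 523 CPM, against 13.2, 23.9, 40.4 and 41.8 CPM. With Pou2f2 it was higher in all 4 libraries, and Maf, a factor of resident macrophages, was lower, out of 19 tested transcription factors. The levels of Itga4, Bcl2 and Tcf7l2 in the members were several times lower in both HFD libraries.

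The remaining lists held few or no genes past the threshold in all 4 libraries, where 3.12% of all tested genes were higher and 1.77% lower. Fcgr4, which encodes an activating IgG receptor, was the 1 higher gene of 13 tested Fc and phagocytic receptors, and Msrb1 and Lst1 were higher of 13 genes shared by monocytes. Pparg and Apoc2 were higher of 14 lipid-handling genes, and Apoc2 was higher while Ctsl and Cd63 were lower of 10 lipid-associated macrophage genes. Ccl7 was lower of 8 chemokines and cytokines, Mgl2 of 3 type 2 dendritic cell genes, and Jun and Egr1 of 14 genes of the dissociation response. None of 7 tested MHC class II, 6 MHC class I, 15 oxidative phosphorylation or 9 glycolysis and hypoxia genes passed in all 4 libraries. The 1 tested interferon gene, the 1 tested cavity macrophage gene, the 4 type 1 and 2 plasmacytoid dendritic cell genes, and the 3 cell division genes did not pass either. The dissociation list summed to 10415, 13814, 9881 and 8971 CPM in the members, against 18946, 16706, 20351 and 20472 CPM in other kept cells.

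Members of the HFD and normal diet libraries differed in both genotypes. In CKO, 281 of 1695 tested genes (16.6%) were at least 2-fold higher in HFD members than in normal diet members and 517 (30.5%) at least 2-fold lower. In WT, 120 of 1783 genes (6.73%) were higher in HFD members than in normal diet members and 274 (15.4%) lower. The median of all tested genes was -0.28 in CKO and -0.21 in WT on the log2 scale, and normalisation by TMM moved it to -0.13 and -0.09. Relative to the median, 408 genes were higher and 393 lower in CKO, and 187 higher and 184 lower in WT. Under TMM, 152 genes were higher and 218 lower in WT, which put 41.1% of the called genes on the higher side instead of 30.5%. The CKO and WT comparisons do not share a library with each other, but each shares its libraries with a genotype comparison below.

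Part of the diet difference was present outside the gate as well. Of the genes called in CKO members, 100 of the 281 higher and 270 of the 517 lower also passed 2-fold in other kept cells, where 108 were higher and 298 lower in all. In WT it was 33 of 120 and 46 of 274, with 39 higher and 83 lower in other kept cells. Among members with 3 or 4 markers alone, 224 of the 281 and 409 of the 517 passed in CKO, and 76 of the 120 and 106 of the 274 in WT. Gene length moved with the calls. The higher genes spanned a median of 5.25 kb in CKO and 6.46 kb in WT, and the lower genes 101 kb in CKO and 77.3 kb in WT, while all tested genes spanned 23.3 and 29.5 kb. The part of library preparation in this was not tested.

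MHC class II genes were higher over all members under HFD, but not in every class of members. These genes encode the molecules that present peptides to CD4+ T cells, and 6 of 7 tested were higher in WT HFD than in WT normal diet (Cd74, H2-Aa, H2-Ab1, H2-DMa, H2-DMb1 and H2-Eb1) and 3 of 7 in CKO HFD than in CKO normal diet (Cd74, H2-Ab1 and H2-DMb1). Of all tested genes 6.73% were higher in WT and 16.6% in CKO. H2-Aa, at chr17:34282744-34287823, had 2990 CPM in members of CKO HFD (Poisson interval 2702 to 3301), 5784 in WT HFD (5619 to 5953), 2166 in CKO normal diet (2082 to 2252) and 1992 in WT normal diet (1916 to 2070). The ratio of HFD to normal diet was 2.90 in WT (2.77 to 3.05) and 1.38 in CKO. In members with 3 or 4 markers it was 3.75 in WT (3.38 to 4.16) and 2.15 in CKO (1.78 to 2.58). Members with 4 markers alone had 1214 CPM of H2-Aa in CKO HFD (6 cells) and 2388 in WT HFD (14 cells). The normal diet values were 1442 CPM in CKO and 1236 in WT, so H2-Aa turned direction in CKO, on 6 cells. Their summed class II list did not turn, at 8501 CPM in CKO HFD and 13651 in WT HFD. It was 7624 CPM in CKO normal diet and 6830 in WT normal diet. After thinning, members with 4 markers had 0 CPM of H2-Aa in WT HFD (7 cells) and 401 in WT normal diet. Their summed class II list was then 2214 and 3169 CPM, so both turned direction in WT, on those 7 cells. Other kept cells differed in H2-Aa by -0.10 on the log2 scale in WT and 0.20 in CKO. Cd74, the invariant chain gene, was 1.84 higher on the log2 scale in WT HFD than in WT normal diet and 1.22 higher in CKO HFD than in CKO normal diet. The median of the 7 genes was 1.53 in WT and 0.90 in CKO, against 0.36 and 0.50 in other kept cells.

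Genes of the non-classical list were lower in the members of WT HFD, and by less in those with 3 or 4 markers. Of 20 tested, 13 were lower in WT HFD than in WT normal diet and none was higher, with a median of -1.42. Of all tested genes 15.4% were lower there. In members with 3 or 4 markers 1 of 21 was lower and the median was -0.27, while other kept cells had a median of -0.29. In CKO, 6 of 20 were lower and 3 higher in HFD than in normal diet, with a median of -0.46, shares like the 30.5% lower and 16.6% higher among all tested genes. In members with 3 or 4 markers of CKO 3 of 21 were lower and 5 higher, with a median of 0.02. Spn, for example, had 198 and 60.9 CPM in all members of CKO HFD and WT HFD and 301 and 290 CPM in CKO normal diet and WT normal diet. Its values in members with 3 or 4 markers, given above, lay within 276 to 427 CPM in all 4 libraries. The whole gate under HFD held a larger part of 2-marker cells, and the part of marker number in these differences was not tested. Members with 3 or 4 markers were chosen by genes of the same cell type. In WT they also differed in depth, with medians of 6983 UMIs in WT HFD and 2397 in WT normal diet.

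Dusp16 was lower under HFD in all members and in those with 3 or 4 markers. It encodes a phosphatase of the JNK and p38 kinases and lies at chr6:134715468-134792625. Its level was 190 CPM in members of CKO HFD (interval 123 to 281) and 170 in WT HFD (143 to 201), against 1357 in CKO normal diet (1291 to 1426) and 1295 in WT normal diet (1234 to 1358). The 2 HFD libraries did not come near the 2 normal diet libraries. That is 7.14-fold lower in CKO and 7.61-fold lower in WT, or -2.71 and -2.79 on the log2 scale. With 3 or 4 markers the differences were -2.08 in CKO and -1.54 in WT, and in other kept cells -1.40 in CKO and -0.75 in WT.

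Nr4a1 and Pou2f2 were also lower under HFD, by less in the members with more markers. Nr4a1 had 730 CPM in members of CKO HFD and 547 in WT HFD, against 1628 in CKO normal diet and 1394 in WT normal diet. The log2 difference of diets was -1.13 in CKO and -1.32 in WT, and -0.52 and -0.69 with 3 or 4 markers. Other kept cells differed by -1.01 in CKO and -1.76 in WT, so the same direction was found outside the gate. Pou2f2 had 327, 265, 820 and 851 CPM in members of the 4 libraries and differed by -1.61 in WT and by -0.27 there with 3 or 4 markers. Gngt2 took opposite signs in all members, at 1795 CPM in CKO HFD and 513 in WT HFD, against 673 in CKO normal diet and 789 in WT normal diet. With 3 or 4 markers Gngt2 was higher under HFD in both genotypes, 3.43 times in CKO and 1.48 times in WT.

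**Figure D4:**
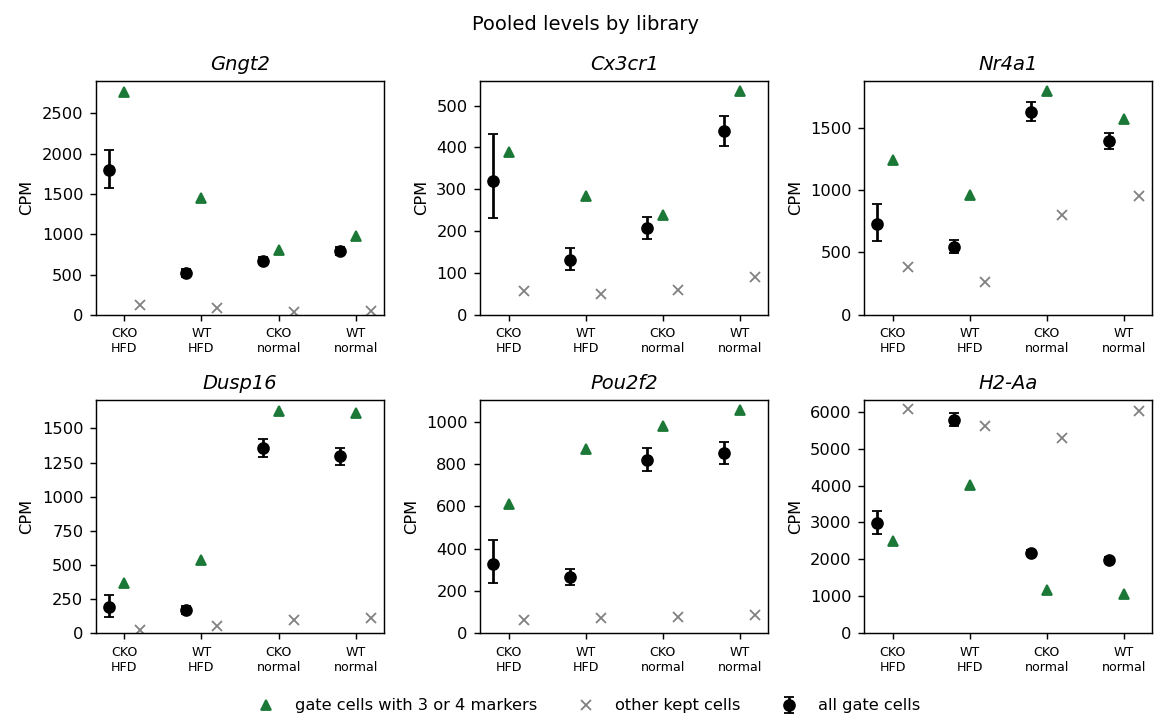
Levels in CPM of Gngt2, Cx3cr1, Nr4a1, Dusp16, Pou2f2 and H2-Aa in the 4 libraries. Black points are all members with 95% Poisson intervals for counting error, green triangles members with 3 or 4 markers, and grey crosses other kept cells; Dusp16 is lower in both HFD libraries (170 to 190 CPM against 1295 to 1357) and H2-Aa is highest in WT HFD.

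Among the most different genes by diet, Lgals1 was named in both genotypes. Lgals1, the galectin-1 gene, had 791 CPM in members of CKO HFD and 672 in WT HFD, against 103 in CKO normal diet and 95.6 in WT normal diet. The ratio of diets was 7.69 in CKO (5.85 to 10.1) and 7.03 in WT (5.78 to 8.62), and the log2 difference in other kept cells was 2.24 in CKO and 1.90 in WT. Fabp5, a fatty acid-binding protein gene, had 378 CPM in WT HFD and 60.9 in WT normal diet, with 121 of its 304 UMIs in 1 HFD cell. Its log2 difference was 2.30, or 1.84 without the top cells, 2.24 with 3 or 4 markers and 1.91 in other kept cells. Igf1, the gene of insulin-like growth factor 1, had 268 CPM in WT HFD and 7.71 in WT normal diet. Its log2 difference of 3.38 was 1.25 with 3 or 4 markers and 1.75 in other kept cells. Rgs1, Ier3 and Basp1 were the other named higher genes in WT, with log2 differences of 2.38 to 2.52. In other kept cells they differed by 1.24, 0.43 and 1.55. The named genes lowest in WT HFD included Setbp1 (-3.04), Dusp16, Gsr (-2.75), Spata13 (-2.57) and Plac8 (-2.48). With 3 or 4 markers Gsr differed by -1.14 and Plac8 by -0.92. In other kept cells Setbp1 differed by -0.92, Gsr by -0.97, Spata13 by -0.55 and Plac8 by -1.92.

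The highest and lowest genes of the CKO diet comparison rested on fewer molecules. Trem2, a lipid receptor gene of macrophages, had 190 CPM in members of CKO HFD and 12.9 in CKO normal diet, and differed by 1.97 on the log2 scale in other kept cells and by 0.85 in members with 3 or 4 markers. Cxcl2, a neutrophil-attracting chemokine, had 1316 CPM in CKO HFD and 217 in CKO normal diet, with 72 of 173 HFD UMIs in 1 cell. Ccrl2, an atypical chemokine receptor gene, had 342 and 50.6 CPM, and differed by 2.36 on the log2 scale in members and 0.42 in other kept cells. Atp5g1, a subunit of ATP synthase, had 502 and 84.1 CPM, and differed by 2.33 on the log2 scale in members and 1.53 in other kept cells. Among the lowest, the long non-coding RNA Lncpint had 1 UMI in CKO HFD and 512 in CKO normal diet, which is 57.7-fold lower with an interval of 10.3 to 2285. Maml3 with 3 UMIs in CKO HFD was 22.1-fold lower (7.51 to 107), Zbtb20 with 2 UMIs 25.9-fold lower (7.14 to 215) and Sipa1l1 with 2 UMIs 25.2-fold lower (6.94 to 209). Vav3, a guanine nucleotide exchange factor gene, was 24.0-fold lower (9.35 to 88.4). Mapkapk3, a kinase gene of the p38 pathway, had no UMI in CKO HFD and 208 CPM in CKO normal diet, at least 9.13-fold lower with the floor at 3 UMIs over the library. In other kept cells Lncpint differed by -2.09 on the log2 scale, Zbtb20 by -1.90, Vav3 by -1.85, Maml3 by -1.40 and Sipa1l1 by -1.26. Mapkapk3 differed by -0.76 there.

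Other lists moved with diet to unequal extents, beside 16.6% higher and 30.5% lower of all tested genes in CKO and 6.73% and 15.4% in WT. Macrophage genes were higher in 7 of 8 tested in WT HFD than in WT normal diet (among them Apoe, Cd68, Ctsd, Mrc1, Pf4 and Selenop; median 1.37) and in 3 of 8 in CKO HFD than in CKO normal diet (Apoe, Cd68 and Trem2; median 0.82). With 3 or 4 markers the medians were 0.83 in WT and 0.81 in CKO, and 2 of 7 genes passed in WT. In other kept cells the macrophage medians were 0.52 in WT and 0.29 in CKO. Oxidative phosphorylation genes were higher in 9 of 16 in CKO, with a median of 1.30 against 0.63 in other kept cells, and in 2 of 15 in WT. Glycolysis and hypoxia genes were higher in 4 of 9 in CKO (Aldoa, Eno3, Gapdh and Pgam1), and in WT Gapdh was higher and Eno3 lower. Lipid-associated macrophage genes were higher in 5 of 8 and lower in 3 of 8 in WT, with Fabp5, Lgals3, Lipa, Lpl and Plin2 against Apoc2, Cd9 and Itgax. In other kept cells of WT 4 of the 8 were higher and none lower, with a median of 0.76 against 1.40 in the members. In CKO 3 of 9 were higher in members and 4 of 9 in other kept cells, and none was lower. Adhesion genes were lower in 4 of 14 in WT (Cx3cr1, Itga4, Itgax and Spn) and in 3 of 13 in CKO (Cd44, Itga4 and Itgam), a smaller share than the lower genes took of all tested genes in CKO. Dissociation-response genes were higher in 6 of 14 in WT, with a median of 0.54 in all members, 0.12 in members with 3 or 4 markers and -0.30 in other kept cells. That list moved beside the diet calls in WT, and its part in them was not tested.

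Under HFD, the comparison of genotypes rested on 41 CKO cells and 69 WT cells. Of 1477 tested genes 114 (7.72%) were at least 2-fold higher in CKO HFD than in WT HFD and 160 (10.8%) lower. In other kept cells 32 of the same genes were higher and 58 lower, and 20 of the 114 and 52 of the 160 passed on both sides. With 3 or 4 markers 63 of the 114 and 109 of the 160 passed. The higher genes spanned a median of 5.36 kb and the lower genes 110 kb, and in other kept cells 2.96 and 204 kb. Depth per cell, marker number and gene span all moved with this comparison, and their part in it was not tested.

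Cmss1 stood lowest in CKO HFD, inside and outside the gate. Cmss1, a gene of ribosomal RNA processing, had 297 CPM in members of CKO HFD and 3896 in WT HFD, 13.1-fold lower (9.58 to 18.5). It differed by -3.63 in members, -3.66 with 3 or 4 markers and -3.36 in other kept cells, so that nearly the same difference ran through both libraries. Neat1, a long non-coding RNA, had 45.6 and 425 CPM and differed by -2.76 in members and -2.30 in other kept cells. Gphn and Vav3 differed by -2.74 and -2.90 in members and by -2.14 and -1.49 in other kept cells. Plcb1, with 1 UMI in CKO HFD, was 25.6-fold lower (4.54 to 1019), and Dab2, an endocytic adaptor gene with 3 UMIs, was 13.5-fold lower (4.57 to 65.9). Dab2 differed by -0.28 in members with 3 or 4 markers and by -0.30 in other kept cells, where Plcb1 differed by -1.22.

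Several genes of monocytes stood higher in CKO HFD than in WT HFD, beside 7.72% higher and 10.8% lower of all tested genes. Of 13 genes shared by monocytes 7 were higher (Cebpb, Fcer1g, Ifitm3, Lst1, Lyz2, Msrb1 and Tyrobp; median 1.06 against 0.22 in other kept cells), and of 18 non-classical genes 8 were higher (Bcl2a1b, Cd300e, Cx3cr1, Eno3, Gngt2, Pglyrp1, Slc12a2 and Spn). The median of the 18 was 0.73. Among members with 3 or 4 markers 2 of 21 non-classical genes were higher and 1 lower, with a median of 0.36, and 5 of 13 shared genes were higher, with a median of 0.53. Ifitm3, an antiviral membrane protein gene, had 3766 CPM in CKO HFD and 768 in WT HFD, a ratio of 4.90 (4.35 to 5.53). It differed by 2.26 on the log2 scale in members, 1.53 with 3 or 4 markers and 1.62 in other kept cells. Prdx5, a peroxiredoxin gene, had 1628 and 278 CPM and differed by 2.47, against 0.71 in other kept cells. Hp, the haptoglobin gene, had 266 and 21.1 CPM, Apoc2 had 540 and 78.3 CPM, and G0s2, an inhibitor of the lipase ATGL, had 205 and 3.73 CPM with 16 of its 27 CKO UMIs in 1 cell. Cxcl9 had 46 UMIs in 1 cell of CKO HFD and none in members of WT HFD or CKO normal diet. Macrophage genes were lower in 3 of 9 (Adgre1, Mrc1 and Pf4), and no MHC class II gene of 7 passed, with a median of -0.67.

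Under the normal diet the members of the 2 genotypes were close to each other across the transcriptome. Of 1937 tested genes 2 (0.103%) were at least 2-fold higher in CKO than in WT and 1 (0.0516%) lower, and the median was 0.02. In other kept cells none passed. These libraries had similar depths and the most cells, 357 in CKO and 408 in WT. The lists with at least 5 tested genes held no gene past the threshold other than those 3.

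The 1 lower gene was Cx3cr1, the fractalkine receptor gene at chr9:119901616-120069879. It had 207 CPM in members of CKO normal diet (Poisson interval 182 to 235) and 439 in WT normal diet (403 to 476), from 241 UMIs in 157 cells and 569 UMIs in 279 cells. The level in CKO was 2.12-fold lower (1.82 to 2.48), or -1.02 on the log2 scale and -0.98 after TMM, just under the threshold. With 3 or 4 markers the level was 239 CPM in CKO and 534 in WT, 2.24-fold lower (ratio interval 0.378 to 0.528). No cell weighed on it, since the most UMIs in 1 cell were 6 in CKO and 7 in WT. After thinning, 34.0% of CKO members (28.3 to 40.0) and 58.8% of WT members (52.9 to 64.6) had a UMI of it, against 9.61% and 13.5% of cells with under 2 markers over the C1q limit. Unthinned, 44.0% of CKO members and 68.4% of WT members had one, against 18.4% and 23.2% of cells over the limit. Other kept cells differed in the same direction by -0.49. Under HFD the order was the other way round, with 320 CPM in CKO and 132 in WT, from 42 and 106 UMIs.

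The 2 higher genes, Ccl2 and Ccl4, each rested on 1 cell. Ccl2, the ligand of CCR2, had 221 CPM in CKO normal diet and 67.8 in WT normal diet, and 210 of its 257 CKO UMIs lay in 1 of 15 cells. Without the top cell of each library the log2 difference of Ccl2 was 0.10 in place of 1.45. Ccl4, a chemokine gene, had 169 and 59.4 CPM, and 146 of its 197 CKO UMIs lay in 1 of 25 cells. Its log2 difference was 0.05 without the top cells, in place of 1.25. Nrip1, a corepressor of nuclear receptors at chr16:76287400-76373827, came next and was spread over many cells. It had 215 CPM in CKO (250 UMIs in 122 cells) and 107 in WT (139 UMIs in 90 cells), a ratio of 2.00 (1.62 to 2.48) that fell short of 2-fold once 20 CPM were added, at 0.88 on the log2 scale. Nrip1 differed by 0.81 with 3 or 4 markers and by 0.33 in other kept cells.

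**Figure D5:**
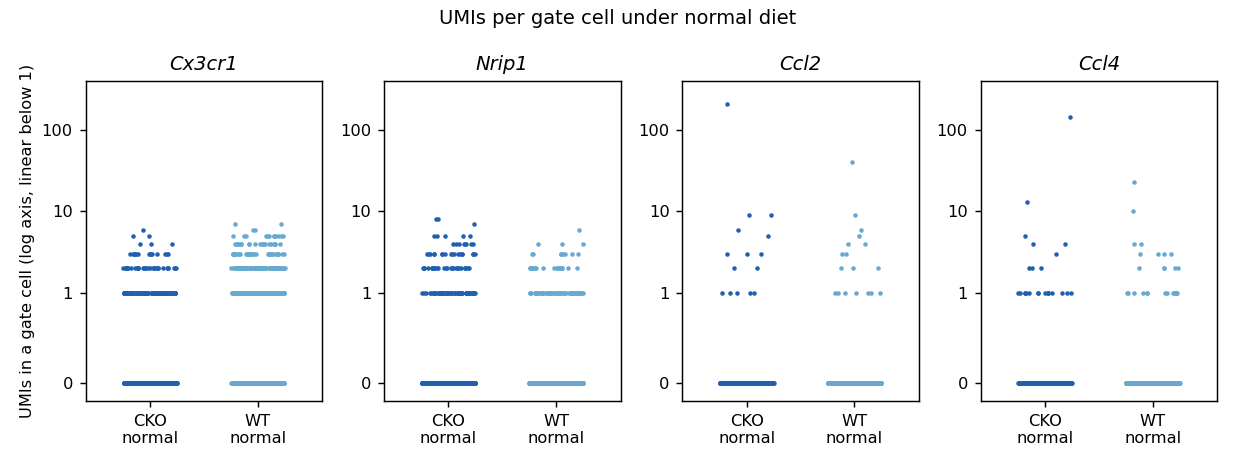
UMIs of Cx3cr1, Nrip1, Ccl2 and Ccl4 in each member of CKO normal diet (left) and WT normal diet (right), on an axis that is linear near 0 and logarithmic above. Each point is 1 cell; Cx3cr1 and Nrip1 have at most 8 UMIs in any cell, while 1 CKO cell holds 210 UMIs of Ccl2 and 1 holds 146 of Ccl4.

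The further named genes of this comparison stayed under 2-fold. Maml2, a Notch coactivator gene, differed by 0.68, Prkag2, a subunit of AMP-activated kinase, by 0.66 and Nedd8, a ubiquitin-like protein gene, by 0.63, with UMIs in 89 to 167 cells of each library. On the lower side Cxcl2 differed by -0.85, Lyz1 by -0.71, Tnip3 by -0.69, Smpdl3b by -0.62 and Tnfaip8 by -0.53. Smpdl3b, a lipid-modifying enzyme gene, was found in 142 CKO cells and 200 WT cells, at 172 and 274 CPM, and did not differ in other kept cells by more than 0.01. Cxcl2 and Lyz1 rested on 23 to 39 cells each.

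Prdm1 itself was scarce in the members. Its level was 38.0 CPM in CKO HFD, 24.9 in WT HFD, 58.3 in CKO normal diet and 34.7 in WT normal diet, from 5, 20, 68 and 45 UMIs. The ratio of CKO to WT was 1.53 under HFD (0.449 to 4.20) and 1.68 under the normal diet (1.14 to 2.51), so the targeted transcript was not lower in the libraries labelled CKO. Prdm1 lies at chr10:44437177-44528501 on the minus strand. The libraries read the 3′ end of transcripts, and a read there from outside the deleted part does not check the knockout.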

How the data were processed

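Counts of UMIs per gene and cell were deposited for each library as called cells, written by Cell Ranger 7.0.0 per the file headers, with the build GRCm38 per the submitters' processing notes; intron counting was not given in these. All 32285 genes were kept by identifier, 32158 of which were found in GENCODE M21, the source of positions and spans. Cells were filtered and gated as described above, and member UMIs were summed per library and scaled to CPM. The members and all 31 gene lists were chosen with earlier results of these data known.

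Levels carry exact Poisson, shares Clopper-Pearson and ratios conditional binomial intervals at 95%. A gene was called at 2-fold on CPM + 20, with a mean of at least 100 CPM over the cells compared. No p-value was computed and no replicate error exists. Named genes were the 15 highest and 10 lowest by the weakest of the 4 libraries for members over other cells, the 6 highest and 6 lowest of each comparison, the gate genes, Prdm1, the 3 most abundant members of each list and the detected unused non-classical genes; mitochondrial, ribosomal protein, haemoglobin, immunoglobulin, T cell receptor, predicted and sex-linked genes were left out. Other list genes are the called members of that list, named after their values were seen. Cells of 1 library are not replicates.

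All cells were kept whatever their doublet score; an alternative left out the top scores, 0.8% per 1000 cells. The other alternatives were at least 3 markers, at least 2 of Ace, Adgre4 and Treml4, a C1q limit of 2, thinning to 2000 or 1000 UMIs, a minimum of 1000 UMIs, TMM factors (edgeR 4.0.16), a pseudocount of 5, a mean of at least 20 CPM and, chosen after seeing the data, leaving out the cell with the most UMIs of a gene. Scripts ran in python 3.11.15 with numpy 2.4.6, scipy 1.17.1, pandas 2.3.3 and scanpy 1.11.5, and the calling rule was tested on simulated data. Clec7a and Mx1 were not analysed here. A few genes that the rule names are not reported here.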

Additional observations from a re-analysis of the deposited data

Results flagged for a closer look

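In 3 genes the sign of a comparison in the members was opposite in the other diet or genotype, with each side at least 2-fold; the difference was not tested, as each side rests on 1 library a group.

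Cx3cr1 differed by 1.16 on the log2 scale between CKO HFD and WT HFD (320 and 132 CPM) and by -1.02 between CKO normal diet and WT normal diet. In members with 3 or 4 markers the first difference was 0.43, a ratio of 1.38 with a counting interval of 0.774 to 2.38, so a higher level in CKO HFD was not detectable there.

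Ccl4 differed by -1.53 between CKO HFD and CKO normal diet (45.6 and 169 CPM) and by 1.09 between WT HFD and WT normal diet (149 and 59.4 CPM). The CKO HFD value rests on 6 UMIs in 4 cells, and without the top cells the CKO difference of Ccl4 was -0.56. In other kept cells Ccl4 differed by 1.21 in CKO and 0.04 in WT.

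Eno3, the enolase gene of muscle at chr11:70657202-70662513, differed by 1.10 between CKO HFD and CKO normal diet (312 and 135 CPM) and by -1.05 between WT HFD and WT normal diet (68.3 and 163 CPM). In members with 3 or 4 markers both Eno3 differences were positive, at 1.81 in CKO and 0.53 in WT.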

How the results depend on the processing

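The direction of both diet differences in the share and of both genotype differences was kept under every alternative run for shares. A C1q limit of 2, a minimum of 1000 UMIs and the top doublet scores left out moved no share beyond its counting interval. A pseudocount of 5 and the top doublet scores left out moved no count of genes by over 1.5 times; counts of genes were not run under the C1q limit, the UMI minimum or thinning. In the order CKO HFD, WT HFD, CKO normal diet and WT normal diet, shares were 0.252%, 0.452%, 6.51% and 8.61% with at least 3 markers, 0.309%, 0.946%, 6.83% and 9.15% without Itgal, 0.196%, 0.436%, 6.78% and 8.88% after thinning to 2000 UMIs, and 0.283%, 0.326%, 6.27% and 8.96% after thinning to 1000. The ratio of CKO HFD to WT HFD was 0.558 with at least 3 markers and 0.870 after thinning to 1000 UMIs. The ratio of CKO HFD to CKO normal diet was 0.0387 with at least 3 markers and 0.0289 after thinning to 2000. The ratio of WT HFD to WT normal diet was 0.0525, 0.0492 and 0.0363 with at least 3 markers and after thinning to 2000 and 1000.

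With at least 3 markers 164 genes were higher and 80 lower in the members in all 4 libraries, 174 were lower in WT HFD than in WT normal diet, and 2 were lower in CKO than in WT under the normal diet. Without Itgal 85 were higher in all 4 libraries and 2 lower between the normal diet libraries, and under TMM 0 were lower there. With a mean of at least 20 CPM, which tests more genes, 64 were lower in all 4 libraries. Higher and lower counts were then 221 and 627 for CKO HFD over WT HFD, 7 and 4 for CKO over WT under the normal diet, 476 and 1397 for CKO HFD over CKO normal diet, and 221 and 499 for WT HFD over WT normal diet. The median of the chemokine receptor list in CKO HFD over WT HFD was 0.43 with at least 3 markers and -1.24 over all members; the cause was not tested.

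No paired analysis was possible because each group holds 1 library and the labels give no replicate numbers. The 41 members of CKO HFD, with 7.61 CPM to a UMI, limit every comparison that uses them.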
